A study of Rattus norvegicus with 15 samples.

Results

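The livers described here came from the 5 rats dosed with vehicle alone, 5 of the 15 liver samples in the study, and were taken by their labels without use of any measured value. They give the baseline of a rat liver on a high fat diet: which functions had the strongest array signal, and which differed most from one liver to the next. The animals were male Sprague Dawley rats, 7 weeks of age when treatment began. Fat supplied 59% of the calories of their diet, and dosing by gavage, once a day, lasted 6 weeks. The vehicle was 0.5% methylcellulose. The other 2 groups had the same strain, sex, age and diet and received the acetyl-CoA carboxylase inhibitor PF-04923503 at 10 or 30 mg/kg, 5 samples each. They are used below only for the spread within each of those groups, and no level is compared with vehicle. No group on ordinary chow is among the samples, and the labels used here give neither the time of day nor the feeding state at death. They do not say in so many words that each sample is a different rat, so a spread between samples may be partly technical.

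The liver builds most of the proteins of blood plasma, clears ammonia as urea, oxidises and makes fatty acids, makes bile acids and conjugates foreign compounds for excretion. Several of these functions are set by hormones, feeding and the time of day, among them fat synthesis, the clock genes and hepcidin, the peptide that limits iron release into blood. Sprague Dawley rats are an outbred stock, so animals of one group also differ in genotype.

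Each sample was hybridised to one Affymetrix rat array, and values are log2 signals, on which 1 unit is a 2-fold difference. Of 14217 genes with a probe set of 1 symbol, 9374 had a vehicle mean above the median of all vehicle values, 6.09, and were ranked. A gene is called bright here when it is in the top 5.00% by mean (469 genes, lowest mean 11.84) and variable when it is in the top 5.00% by SD across the 5 livers (469 genes, lowest SD 0.37). Array signal depends on the probe as well as on the transcript, so the order by mean is an order of signal and not of transcript number. Just inside the first limit was Morf4l1 at 11.84 and just outside it Vapa at 11.83. Acp5 and Junb lay on either side of the second, both with an SD of 0.37. With 5 livers, the 95% interval of an SD runs from 0.599 to 2.87 times the value for normally distributed data, which limits the precision of every SD below. All ranks are descriptions and carry no test.

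The 5 arrays correlated with one another at Pearson's r of 0.976 to 0.989 across the ranked genes, which are not independent, and their medians lay between 6.08 and 6.10. Vehicle 1 stood apart: it was the highest or the lowest of the 5 in 274 of the 469 variable genes (58.4%) and in 48.0% of all ranked genes. In 91 variable genes it lay beyond the other 4 by more than their whole range, against 8 to 30 for the other arrays. Its Gapdh control probe sets differed by 0.44 between the 3′ and 5′ ends, against 0.35 to 0.40 in the others. For beta-actin the difference was 1.85, against 1.69 to 1.75. The hexokinase controls did not set it apart, with 1.86 against 1.76 to 1.87. Without vehicle 1, 352 of the 469 variable genes (75.1%) were again in the top 5.00%. For the lists and genes below that moved most when it was left out, the value without it is given as well.

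The signal fitted liver tissue. All 13 measured hepatocyte markers passed the filter and 11 were bright, among them Alb (albumin) at 15.36 ± 0.01 (SD, n = 5), Ttr (transthyretin) at 14.83 ± 0.03 and Cyp2e1 at 14.31 ± 0.13, and none of them was variable. Of 17 markers of pancreas, fat and muscle, 15 were below the filter, among them Adipoq at 4.23 and Acta1 at 3.75. The other 2, the pancreatic elastase Cela1 at 9.45 and the fat cell gene Cfd at 8.06, passed the filter. Of 7 cholangiocyte markers, 6 were below it, and so were 11 of 16 lymphocyte and neutrophil markers. The labels give male rats. Of 9 male-biased genes 8 were bright, with Cyp2c11 at 14.31 ± 0.20 and Cyp3a2 at 14.29 ± 0.07. Of 7 female-biased genes none was bright, and A1bg, Sult2a2 and Akr1b7 were below the filter at 4.25 to 4.77, but the other 4 passed it: Cyp2c12 at 11.62 ± 0.38, Cyp3a9 at 9.79 ± 1.65, Prlr at 8.28 ± 0.98 and Cyp17a1 at 7.08 ± 0.74. The value of Cyp2c12 is uncertain because Cyp2c genes are close in sequence and a probe set may read several of them.

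Most of the brightest genes were those of secreted plasma proteins. After Alb came Gc, the vitamin D carrier, at 14.91 ± 0.01, then C3, the central complement protein, at 14.89 ± 0.05, and Apoc3, an inhibitor of lipoprotein clearance, at 14.87 ± 0.05. The fifth was COX2, a subunit of the respiratory chain, at 14.86 ± 0.02. The haemoglobin scavenger Hp was at 14.85 ± 0.03 and the intracellular fatty acid carrier Fabp1 at 14.81 ± 0.03. By list, 19 of 20 ranked plasma carriers and protease inhibitors were bright (95%), 15 of 17 coagulation genes (88.2%), 12 of 16 complement genes (75%) and 15 of 22 lipoprotein genes (68.2%), against 5.00% of all ranked genes.

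Lists of fuel handling, detoxification and protein synthesis also had bright shares above the 5.00% of all ranked genes. Of the genes of fatty acid oxidation and ketogenesis, which burn fat in mitochondria and peroxisomes, 19 of 24 were bright (79.2%). Cytochrome P450 genes were bright in 16 of 24 cases (66.7%), bile acid synthesis and transport genes in 12 of 19 (63.2%), and urea cycle and ammonia genes in 8 of 13 (61.5%), with Cps1, its first enzyme, at 13.62 ± 0.08. Ribosomal protein genes, which every cell uses, were bright in 37 of 39 cases (94.9%) and those of mitochondrial respiration in 29 of 60 (48.3%). No circadian clock (17 ranked), immediate early (15), cell cycle (13) or iron and heme (25) gene was bright. With 5.00% of all ranked genes bright, lists of this size would hold few such genes in any case.

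Several of the brightest functions differed little between livers, but not all. The median SD of all ranked genes was 0.12, or 1.09-fold, and that of the 469 bright genes was 0.10. None of the ranked coagulation, complement, urea cycle, fatty acid oxidation, ribosomal protein or respiration genes was variable. The median SD was 0.06 for coagulation, 0.09 for fatty acid oxidation and 0.08 each for ribosomal proteins and respiration, below that of all genes, while complement at 0.15 and the urea cycle at 0.15 were above it. Leaving out vehicle 2, vehicle 3 or vehicle 5 made 1 coagulation gene (5.88%) and 1 complement gene (6.25%) variable. Other bright lists had variable members: 10% of plasma carriers and protease inhibitors, 13.6% of lipoprotein genes, 15.8% of bile acid genes, with a median SD of 0.24, and 8.33% of cytochrome P450 genes, against 5.00% of all ranked genes. Without vehicle 2 the first 3 of these shares were 5%, 4.55% and 5.26%, and without vehicle 5 that of the P450 genes was 4.17%. Alb had the highest value on all 5 arrays, between 15.35 and 15.36, and the arrays were deposited with nearly the same distribution (95th percentiles of 10.50 to 10.54), whose part in the low spread of some bright genes was not tested. Over the whole range the share of variable genes changed little with signal: 4.48%, 5.38%, 4.91% and 5.25% of genes were variable in 4 equal bins from the dimmest to the brightest mean. The lowest SD of all, 0.0036, belonged to Ganab, a glucosidase subunit of the endoplasmic reticulum, at a mean of 9.56.

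**Figure D1:**
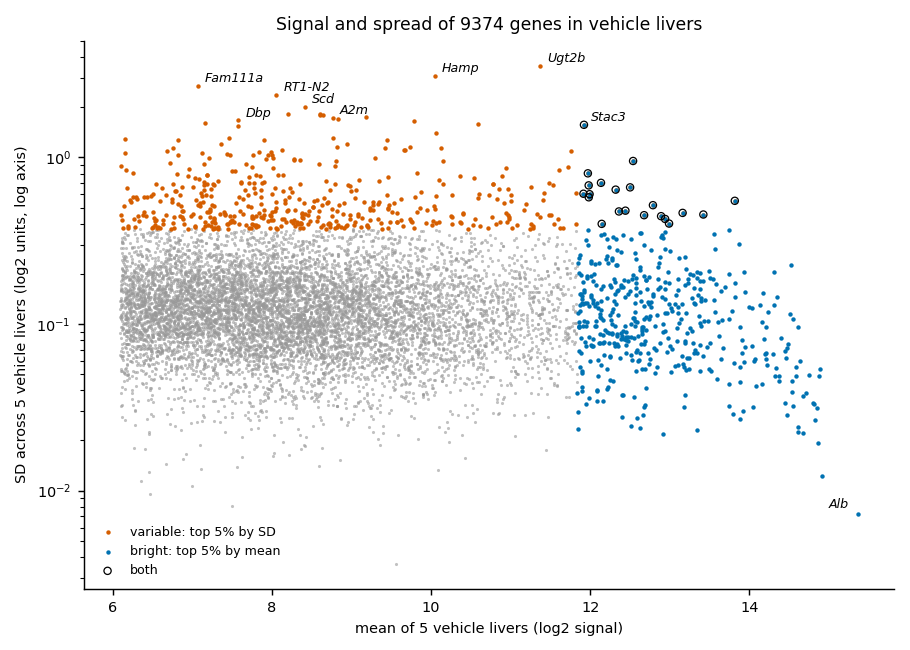
Mean log2 signal of each of the 9374 ranked genes (x axis) against its SD across the 5 vehicle livers (y axis, log axis), with the 469 bright genes in blue, the 469 variable genes in orange and the 21 genes that are both circled. High SDs occur at every signal level except the very top, where Alb lies at 15.36 with an SD of 0.01.

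Of the 469 bright genes 21 were variable (4.48%), close to the 5.00% of all ranked genes. Stac3, known as a protein of muscle contraction, had the highest SD of them, with 9.20 in vehicle 1, 12.46 in vehicle 2, 12.08 in vehicle 3, 13.16 in vehicle 4 and 12.70 in vehicle 5. Vehicle 1 was thus far below the rest, and without it the SD fell from 1.57 to 0.45. Others of the 21 belong to fat handling: Thrsp and Acly of fatty acid synthesis, the desaturase Fads2, the lipid droplet coat Plin2 and the lipoprotein Apoa4. Apoa4 ranged from 11.54 in vehicle 4 to 13.13 in vehicle 5.

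An SD of at least 0.5 was reached by 227 genes (2.42%) and of at least 1 by 47 genes (0.501%). The most variable gene was Ugt2b, a UDP-glucuronosyltransferase that conjugates steroids and drugs. Its values were 13.99 in vehicle 1, 13.92 in vehicle 2, 8.95 in vehicle 3, 13.71 in vehicle 4 and 6.29 in vehicle 5, an SD of 3.56 and a 209-fold range. The gene was thus near the top of the scale in 3 livers, near the array median in vehicle 5 and in between in vehicle 3. A second Ugt2b probe set read 10.62, 10.53, 4.05, 9.63 and 4.14. Vehicle 1, vehicle 2 and vehicle 4 were thus high on both probe sets, but on the second vehicle 3 was as low as vehicle 5. In the 30 mg/kg group the gene again split, with 3 samples between 6.36 and 6.47 and the other 2 at 13.63 and 13.68. All 5 samples of the 10 mg/kg group were between 13.61 and 13.99.

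Fam111a, a protease involved in DNA replication and defence against viruses, also fell into high and low livers. It read 8.79, 8.72, 4.60, 9.50 and 3.73 in vehicle 1 to 5. Vehicle 3 and vehicle 5 were the low ones, as they were for Ugt2b. The Fam111a split recurred outside the vehicle group, with 2 low samples of 5 at 10 mg/kg and 3 of 5 at 30 mg/kg. Its SD was 2.68 in vehicle, 2.80 at 10 mg/kg and 2.47 at 30 mg/kg. The low samples there were not all those of Ugt2b, which was high in every 10 mg/kg sample. At 30 mg/kg replicate 2 read 4.35 for Fam111a and 13.63 for Ugt2b, and replicate 4 read 8.94 and 6.36. Replicates 1, 3 and 5 were on the same side for both genes. Whether such splits come from sequence differences between outbred rats, which can lie under a probe, or from expression was not tested.

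Hamp, which encodes hepcidin, had the second highest SD. It read 6.37 in vehicle 1, 8.92 in vehicle 2, 8.42 in vehicle 3, 13.34 in vehicle 4 and 13.18 in vehicle 5, an SD of 3.09. Vehicle 4 and vehicle 5 were thus high, vehicle 2 and vehicle 3 far below them, and vehicle 1 lowest, 126-fold below vehicle 4. Leaving out vehicle 1 left an SD of 2.66. Within the 10 mg/kg group Hamp had an SD of 0.25 and Ugt2b one of 0.17, and within the 30 mg/kg group Hamp had 0.41 and Ugt2b 3.97. Of the 25 ranked members of the iron and heme list, Hamp among them, 4 were variable (16%, against 5.00% of all ranked genes). The list's median SD was 0.14, against 0.12 for all ranked genes. After Hamp, the highest SD in the list was 0.63, that of Alas2. Tfrc, the transferrin receptor, ran the other way, with 12.07 in vehicle 1 and 10.78 to 11.29 in the other livers, and its SD of 0.53 fell to 0.22 without vehicle 1.

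The promoter of Hamp is shown because its GGCGCC is the core letters of the response element for bone morphogenetic protein signals, the main iron-sensing input to hepcidin. The sequence is RefSeq's, on rat build GRCr8, 250 bases before to 50 after the gene's start, at chr1:95300222-95300521 on the minus strand, with the match in capitals.
Hamp: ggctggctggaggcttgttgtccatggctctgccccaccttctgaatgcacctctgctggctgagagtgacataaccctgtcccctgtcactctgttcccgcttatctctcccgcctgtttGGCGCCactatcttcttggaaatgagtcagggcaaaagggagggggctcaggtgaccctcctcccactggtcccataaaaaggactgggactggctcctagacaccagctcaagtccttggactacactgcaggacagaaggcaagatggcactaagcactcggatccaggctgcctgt
GGCGCC reads the same on both strands and occurred in 11% of the 33469 promoters in the table. A match describes the sequence and was not linked to the values by any measurement here.

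**Figure D2:**
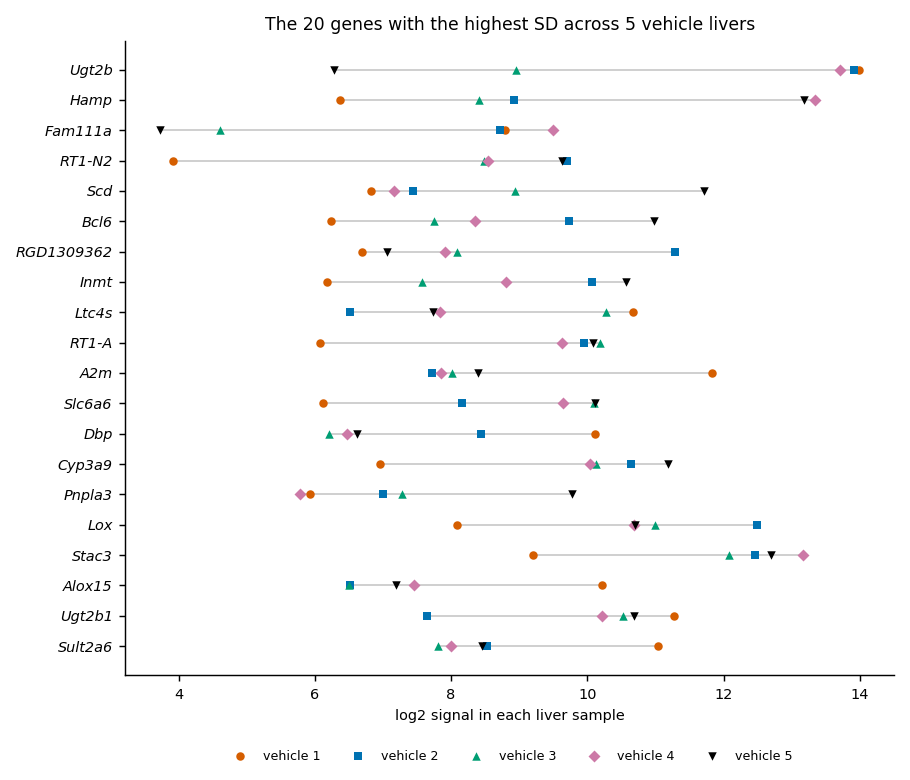
Log2 signal (x axis) of the 20 genes with the highest SD, one row per gene, with one symbol for each of the 5 vehicle livers and a line from the lowest to the highest. Ugt2b, Hamp and Fam111a have at least 2 livers on either side of a wide gap, while RT1-N2, RT1-A, A2m, Cyp3a9, Stac3, Alox15 and Sult2a6 have vehicle 1 alone at one end.

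Among the 37 lists with at least 10 ranked members, the clock genes had the largest share of variable members over all 5 livers. They did not keep that place without vehicle 1, when interferon genes (75%) and fatty acid synthesis (59.1%) were ahead of the clock (41.2%), nor without vehicle 2, when growth hormone and IGF genes (60%) were first. The circadian clock is a loop in which the activators Bmal1, Npas2 and Clock drive the repressors Per, Cry and Nr1d. The activators also drive output factors such as Dbp and Tef. Many of the repressors and outputs peak at a time of day when the activators are low. Of 17 ranked members, 11 were variable (64.7%), with a median SD of 0.53. Dbp read 10.12 in vehicle 1, 8.44 in vehicle 2, 6.22 in vehicle 3, 6.48 in vehicle 4 and 6.62 in vehicle 5. Bmal1 ran opposite, with 5.68, 7.22, 8.08, 8.06 and 8.15. The 2 genes thus ordered the livers the same way from both ends, with vehicle 1 at the extreme, vehicle 2 next and the other 3 close together.

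Several other clock members took the same sides. Npas2 was lowest in vehicle 1 at 6.62, then 8.24 in vehicle 2 and 8.74 to 8.94 in the others. Usp2, a clock-controlled deubiquitinase, was highest in vehicle 1 at 8.60, with 6.59 in vehicle 2 and 5.93 to 6.17 in the others. The outputs Tef and Nr1d2 were high in both vehicle 1 and vehicle 2 (8.79 and 8.67 for Tef, 9.91 and 9.87 for Nr1d2) and at most 7.88 and 9.18 elsewhere. Per2 was highest in vehicle 1 at 8.77, but a second Per2 probe set had an SD of only 0.10. Cry1, though a repressor, was lowest in vehicle 1 at 6.34, the side of the activators Bmal1 and Npas2. Vehicle 1 was the highest or lowest liver for 16 of the 17 genes, against 48.0% of all ranked genes. Without vehicle 1 the SD of Dbp was 1.01 in place of 1.67 and that of Bmal1 0.44 in place of 1.05. That of Usp2 was 0.28 in place of 1.10. The time of death of each rat is not in the labels used here, and its part in the pattern was not tested.

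Motifs of the clock were sought in the promoters, namely the E-box CACGTG, read by the activators, and the D-box TTATGNAA, read by Dbp and Tef, on both strands. Of the 11 variable clock members, 10 had a promoter entry. An E-box was found in 3 of them, Bhlhe40, Nr1d1 and Tef (30.0%), and a D-box in 1, Per2 (10.0%). Over the 14 ranked clock genes with an entry the shares were 21.4% and 7.14%. Of all promoters in the table, 6.42% held an E-box and 3.66% a D-box. Those shares count each promoter, and a gene can have several, so they are not a like comparison. The windows of Dbp, Usp2, Bmal1 and Npas2 held neither motif, which says only that these letters are not in these 300 bases. The 3 promoters below are shown as matches from genes that were highest in vehicle 1: Bhlhe40 at chr4:143174200-143174499 on the plus strand, Tef at chr7:115206577-115206876 on the plus strand and Per2 at chr9:99496944-99497243 on the minus strand, with the motif in capitals.
Bhlhe40: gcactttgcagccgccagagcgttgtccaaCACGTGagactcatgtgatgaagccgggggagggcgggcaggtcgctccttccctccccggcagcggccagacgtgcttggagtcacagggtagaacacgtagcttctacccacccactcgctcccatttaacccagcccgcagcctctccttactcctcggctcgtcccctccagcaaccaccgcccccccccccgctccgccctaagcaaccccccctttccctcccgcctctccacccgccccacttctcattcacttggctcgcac
Tef: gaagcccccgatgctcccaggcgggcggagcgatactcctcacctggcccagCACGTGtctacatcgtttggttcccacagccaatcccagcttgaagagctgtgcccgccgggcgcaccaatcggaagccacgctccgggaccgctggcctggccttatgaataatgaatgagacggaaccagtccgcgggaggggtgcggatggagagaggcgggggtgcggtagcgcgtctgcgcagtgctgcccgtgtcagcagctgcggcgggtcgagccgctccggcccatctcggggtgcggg
Per2: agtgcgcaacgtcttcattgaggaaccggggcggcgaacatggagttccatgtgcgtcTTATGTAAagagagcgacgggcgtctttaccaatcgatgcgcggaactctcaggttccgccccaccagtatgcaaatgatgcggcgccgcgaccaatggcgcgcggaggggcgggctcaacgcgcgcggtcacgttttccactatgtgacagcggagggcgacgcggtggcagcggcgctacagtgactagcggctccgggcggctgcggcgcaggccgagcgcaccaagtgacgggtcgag

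Fatty acid synthesis had the second largest share. Of its 22 ranked genes 12 were variable (54.5%), with a median SD of 0.39. The share was 36.4% without vehicle 4, 40.9% without vehicle 5 and 59.1% without any one of the others. Scd, the desaturase that makes oleate, read 6.82, 7.44, 8.94, 7.16 and 11.71 in vehicle 1 to 5, a 29.6-fold range. Pnpla3, a lipid droplet protein of the same programme, read 5.92, 7.00, 7.27, 5.78 and 9.78, and its second probe set read 5.85, 7.32, 7.11, 5.74 and 9.64. Vehicle 5 was the high liver for both genes on every probe set, and vehicle 1 and vehicle 4 were the lowest. Without vehicle 5 the SD fell from 2.01 to 0.93 for Scd and from 1.61 to 0.83 for Pnpla3.

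The chain-building enzymes had smaller ranges around the same livers. Fasn, fatty acid synthase, ran from 9.60 in vehicle 4 to 11.64 in vehicle 5. Acly, which supplies cytosolic acetyl-CoA, ran from 11.43 in vehicle 4 to 12.95 in vehicle 5, and Srebf1, the regulator of the programme, was highest in vehicle 5 at 12.21. Over the list, vehicle 5 was highest for 11 of 22 genes and vehicle 4 lowest for 10, against 15.6% and 21.0% of all ranked genes. Of the 2 genes for the inhibitor's target enzyme, Acacb was variable, with a range of 5.91 to 7.43, and Acaca, at 8.81 to 9.74, was not. The desaturase Fads1 and the citrate carrier Slc25a1 hardly differed, with SDs of 0.09 each. Fat oxidation, in contrast, had no variable gene among 24.

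Cholesterol synthesis genes were most often lowest in vehicle 4, as were those of fatty acid synthesis. Of 20 ranked genes 6 were variable (30.0%, and 20% without vehicle 4), with a median SD of 0.26. Vehicle 4 was lowest for 17 of the 20, against 21.0% of all ranked genes. Sqle, squalene epoxidase, was 7.91 in vehicle 4, 8.37 in vehicle 5 and 8.94 to 9.14 in the rest. Vehicle 5, the highest liver for 11 of 22 fatty acid synthesis genes, was highest for 2 of the 20. That is not far from its 15.6% share of all ranked genes. Insig1, with the highest SD of the list at 0.60, was 1 of these 2. It read 11.66 in vehicle 5 and was lowest in vehicle 4 at 10.33.

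Interferon response and antigen presentation genes, the sign of antiviral and immune activity, were variable in 17 of 32 cases (53.1%, with 75% without vehicle 1 and 40.6% without vehicle 4), with a median SD of 0.40. Vehicle 2 was highest for 17 of the 32 and vehicle 4 lowest for 23, against 20.5% and 21.0% of all ranked genes. The interferon-induced Mx2 read 7.66, 9.19, 7.51, 7.40 and 8.59, and Usp18, which removes the ubiquitin-like Isg15, read 6.92, 8.56, 7.32, 7.11 and 8.14. For both genes vehicle 2 and vehicle 5 were above the other 3. The chemokine Cxcl10 was highest in vehicle 2, at 7.53, and lowest in vehicle 1, at 5.45.

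Macrophage markers moved with this list. All 13 measured Kupffer cell and macrophage markers were ranked and 3 were variable (23.1%, and 7.69% without vehicle 4). Vehicle 2 was highest for 10 of the 13 and vehicle 4 lowest for 10, against 20.5% and 21.0% of all ranked genes. The log2 of the markers' summed signal ran from 13.14 in vehicle 4 to 13.68 in vehicle 2. Clec4f, a marker of Kupffer cells, was highest in vehicle 2 at 11.30 but lowest in vehicle 1 at 10.50, with 11.03 in vehicle 4. Its SD of 0.32 fell to 0.12 without vehicle 1. In whole tissue, more cells of a type and more RNA per cell cannot be told apart, and the part of macrophages in the interferon spread was not tested.

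Histocompatibility genes formed a separate pattern within immunity. RT1-N2 read 3.92 in vehicle 1 and 8.48 to 9.70 in the others, and RT1-A read 6.08 against 9.62 to 10.19. Without vehicle 1 the SD fell from 2.38 to 0.67 for RT1-N2 and from 1.75 to 0.25 for RT1-A. The class II genes RT1-Bb and RT1-Ba were lowest in vehicle 1 on the probe sets used for the ranks, at 5.38 and 6.93, but not on their other probe sets. The second RT1-Bb probe set read 8.81, 9.02, 4.68, 4.84 and 4.50 in vehicle 1 to 5, so that vehicle 1 was among the high livers. Of the 3 other RT1-Ba probe sets, 1 was lowest in vehicle 4 at 7.96 and the other 2 had SDs of 0.10 and 0.11. Of all 16 ranked RT1 genes, a family set apart after the ranks were seen, 12 were variable (75%). Vehicle 1 was lowest for 8 of those 12, against 150 of all 469 variable genes. Without it 7 of the 16 were in the top 5.00% by SD (43.8%). These genes are highly polymorphic and close in sequence, so a low value may be a mismatch to the probe, which was not tested. RT1-N2 was low in single treated samples too, at 5.42 in 1 of 5 at 10 mg/kg and 5.15 in 1 of 5 at 30 mg/kg.

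The acute phase genes, made by the liver in inflammation, were variable in 7 of 20 cases (35%). Vehicle 1 was highest for 15 of the 20, against 23.6% of all ranked genes. A2m, a protease inhibitor and a major acute phase protein of the rat, was 11.83 in vehicle 1 and 7.73 to 8.39 in the others. Lcn2, an iron-binding protein of innate defence, was 8.64 in vehicle 1, 6.72 in vehicle 2, 7.42 in vehicle 3, 5.68 in vehicle 4 and 5.62 in vehicle 5. Hamp, which is also induced in inflammation and counted in this list, was lowest in the same liver. Without vehicle 1, 15% of the list was variable and the SD of A2m was 0.29 in place of 1.73. The neutrophil gene S100a9 and the immunoglobulin chain Jchain were highest in vehicle 1 as well, at 8.15 and 8.79, with 6.05 to 6.70 and 6.05 to 7.32 in the others. Over the 5 ranked of the 16 lymphocyte and neutrophil markers, the log2 of the summed signal was 10.05 in vehicle 1 and 8.90 to 9.28 in the others. Their part in the acute phase values was not tested.

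Growth hormone and IGF genes were variable in 7 of 15 cases (46.7%, and 33.3% without vehicle 1). Onecut1, a transcription factor responsive to growth hormone, read 10.13, 8.91, 11.05, 9.47 and 7.68, and Socs2, a feedback inhibitor of the hormone's signal, was 8.34 in vehicle 3, 7.89 in vehicle 4 and at most 6.80 in the rest. Igfbp1, an insulin-suppressed binding protein, was 6.50 in vehicle 1 and 8.13 to 8.68 in the others, with an SD of 0.87 that fell to 0.23 without vehicle 1. Bcl6, a repressor in liver controlled by growth hormone, was outside the list but sixth by SD, with 6.24, 9.73, 7.75, 8.35 and 10.98. Female-biased genes, which the pattern of growth hormone release also controls, were variable in all 4 ranked cases, and in 75% without vehicle 1. Cyp3a9 was 6.95 in vehicle 1 and 10.03 to 11.18 in the others, with an SD of 0.53 without vehicle 1. The prolactin receptor Prlr was highest in vehicle 1 at 9.57 and lowest in vehicle 4 at 7.26. Among male-biased genes Obp3 alone was variable, at 12.84 in vehicle 1 and 13.99 to 14.16 in the others, and its SD fell from 0.55 to 0.07 without vehicle 1.

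Detoxification had variable members in both of its lists. Of 24 cytochrome P450 genes 2 were variable, Cyp3a9 and Cyp2c12 (8.33%, with 12.5% without vehicle 1 and 4.17% without vehicle 5). Of 29 conjugating enzymes 8 were variable (27.6%, and 17.9% without vehicle 1). The share over all ranked genes was 5.00%. The median SD was 0.16 for the P450 genes and 0.18 for the conjugating enzymes, against 0.12 for all ranked genes. Ugt2b1 was low in vehicle 2 alone, at 7.65 against 10.21 to 11.27, and without that liver its SD fell from 1.40 to 0.44. Sult2a6, a steroid sulfotransferase, was high in vehicle 1 alone, at 11.04 against 7.81 to 8.53, and its SD fell from 1.31 to 0.35 without it. Gstt3, a glutathione transferase, was high in vehicle 4 and vehicle 5, at 11.07 and 11.61 against 9.11 to 9.49, the same 2 livers as for Hamp. All 5 ranked Gstm genes, a family set apart after the ranks were seen, were lowest in vehicle 1, against 24.5% of all ranked genes. Of these 5, 3 were variable, and 1 without that liver.

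**Figure D3:**
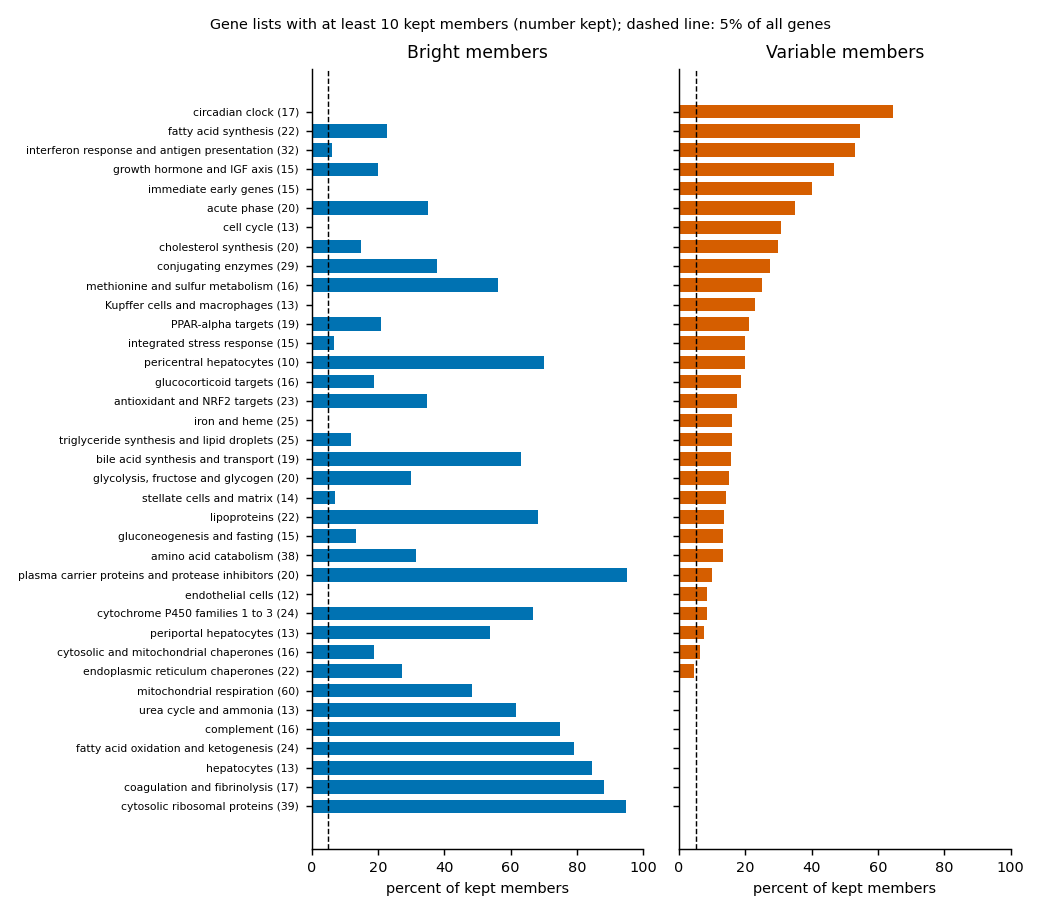
Percent of the ranked members of each gene list that were bright (left) and variable (right), for the 37 lists with at least 10 ranked members, with the number ranked in parentheses and a dashed line at the 5% that holds over all genes. Coagulation, fatty acid oxidation and ribosomal proteins are at the top for signal with no variable member, and the circadian clock, fatty acid synthesis and interferon lists are at the top for spread.

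**Figure D4:**
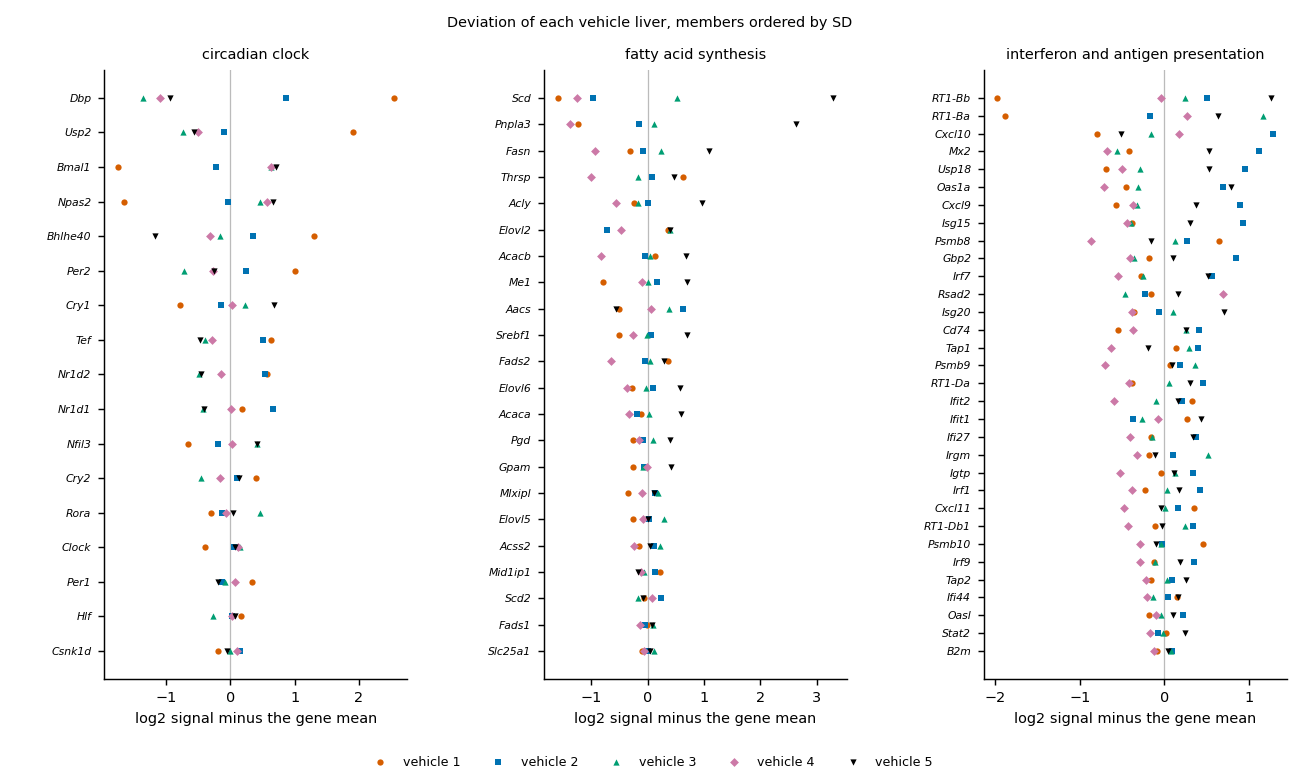
Log2 signal of each vehicle liver minus the gene's mean (x axis) for every ranked member of 3 lists, ordered by SD. Vehicle 1 lies at the ends of the clock genes, vehicle 5 at the high end of Scd, Pnpla3 and Fasn, and vehicle 2 at the high end of 17 of the 32 interferon and antigen presentation genes.

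The spread recurred in rats that the ranks did not use. Of the 469 genes variable in vehicle livers, 270 (57.6%) were also in the top 5.00% by SD within the 10 and 30 mg/kg groups pooled. The share was 52.7% with the 10 mg/kg group alone and 52.0% with the 30 mg/kg group alone. The vehicle group itself had somewhat more spread: its median SD over all ranked genes was 0.12, against 0.11 at 10 mg/kg and 0.10 at 30 mg/kg, and 47 genes reached an SD of 1, against 30 and 28. Without vehicle 1, the vehicle sample most often at an extreme, the median SD was 0.11 and 29 genes reached an SD of 1. No sample was left out of the treated groups, so these values are not a like comparison with theirs. Dbp kept a high SD in both groups, 1.34 and 1.06, and Scd had 0.57 and 1.35. Alox15, a lipoxygenase that was 10.21 in vehicle 1 and 6.50 to 7.45 in the other vehicle livers, had SDs of 0.28 and 0.26 there and of 0.48 in the vehicle livers without vehicle 1.

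**Figure D5:**
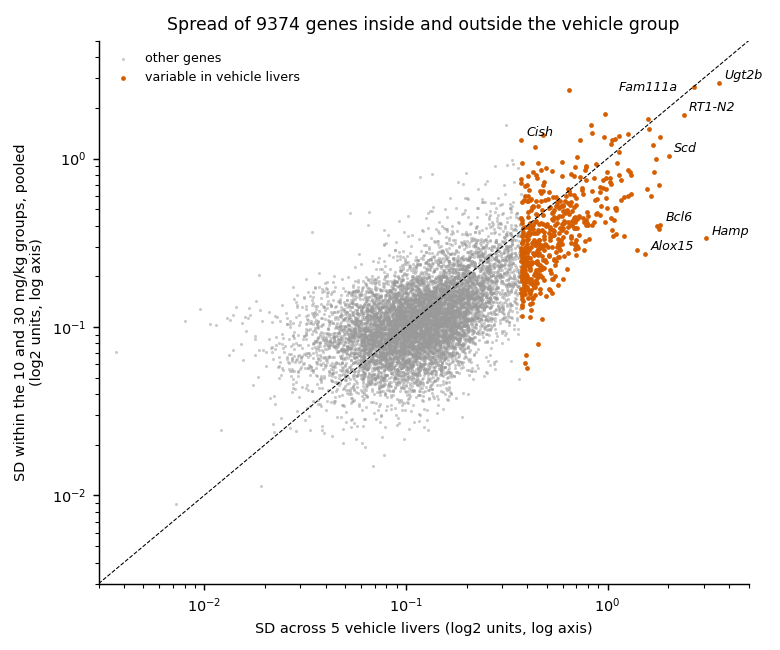
SD of each ranked gene across the 5 vehicle livers (x axis) against its SD within the 10 and 30 mg/kg groups, pooled (y axis), both on log axes, with the genes variable in vehicle livers in orange and a dashed line of equality. Fam111a and RT1-N2 lie near the line, and Hamp, Bcl6 and Alox15 well below it.

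A second probe set was available for 92 of the variable genes. In 48 of them (52.2%) it also passed the SD limit of the variable genes, against 1.47% of 2174 other genes. It had the same highest liver in 66.3% and the same lowest liver in 65.2% of the variable genes, against 42.9% and 43.3% of the others.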

How the data were processed

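Values are the log2 signals the authors deposited for the 15 arrays. The submitters' processing notes name RMA, GCRMA 2.12.1 and limma 2.14.7 without saying which step each served, so the background correction is not known here. The arrays nearly share 1 distribution. Of 31099 probe sets, 57 were controls, 20826 had 1 gene symbol, 436 several and 9780 none. Symbols were updated through gene identifiers for 20758. A gene was represented by its brightest probe set with a vehicle mean above 6.09 (12337 probe sets, 9374 genes). Means, SDs and ranks were computed in Python 3.11.15 with pandas 2.3.3 and checked on simulated data. The number of arrays limits the precision. The genes named are the 20 highest means, the 20 highest SDs, the 10 lowest SDs, and from each of 43 lists up to 3 members by SD and 2 by mean, with Hamp, Scd, Pnpla3 and Tfrc. Other list members were named after their values were seen. Members and lists were chosen with earlier results of these data known. Of the listed symbols 6 matched through an older name, Serpina3k and the kininogens among them, whose family members are uncertain. Alternatives were the filter, the probe set rule, normalization, the measure of spread and each vehicle sample left out.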

Additional observations from a re-analysis of the deposited data

Results flagged for a closer look

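Among the 207 named genes, 27 (13%) had 1 liver far from the other 4, by a gap over the range above Dixon's 95% critical value for 5 samples. The share was 6.77% over all 9374 ranked genes, and chance alone gives about 5% of groups. Many named genes were picked for a high SD over these same livers, which favours genes with 1 liver far off. The share among named genes is therefore not a like comparison with that of all genes, and the choice also bears on the counts per liver. No cause was tested.

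In 19 of the 27 the liver was vehicle 1. It was the low one for RT1-N2 (3.92), RT1-A (6.08), Cyp3a9 (6.95), Stac3 (9.20), the cyclin Ccnd1 (6.86), the cell cycle inhibitor Cdkn1a (7.00), Igfbp1 (6.50), Obp3 (12.84), Cyp2c11 (13.95) and the glutathione transferase Mgst1 (14.49). For the other 4 livers Ccnd1 was 9.07 to 9.90 and Cdkn1a 8.61 to 9.16. It was the high one for A2m (11.83), Alox15 (10.21), Sult2a6 (11.04), Usp2 (8.60), the stress-induced Nupr1 (11.02), the bile acid ligase Slc27a5 (13.15), the endothelial Vwf (7.36) and the complement genes C4bpb (13.25) and Masp1 (9.91).

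In vehicle 5 the growth arrest gene Gadd45g (8.93) and the glutaminase Gls2 (11.82) were high, and the aminotransferase Agxt2 (10.34), the quinone reductase Nqo1 (8.998) and the collagen Col3a1 (10.61) were low. In vehicle 4 the macrophage gene Aif1 (7.10) and the antibody transporter Pigr (14.29) were low. In vehicle 3 the chaperone Dnajb9 (10.19) was high. For Pigr and Mgst1 the SDs were 0.05 and 0.06, so the gap is small in size.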

How the results depend on the processing

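With the filter at the 75th percentile of all vehicle values, 130 genes in place of 227 had an SD of at least 0.5 and 30 in place of 47 at least 1, with fewer genes tested, and the bright share fell to 41.7% for fatty acid oxidation and 51.3% for ribosomal proteins. With the SD taken relative to genes of like mean, 142 genes reached 0.5. With the median absolute deviation, 22 genes reached 1, and the variable share was 17.2% for conjugating enzymes and 20% for growth hormone and IGF genes. Leaving out each vehicle replicate in turn gave 29 to 54 genes with an SD of at least 1, and a variable share of 41.2% to 66.7% for the circadian clock, 15% to 45% for acute phase genes and 17.9% to 27.6% for conjugating enzymes, each lowest without vehicle 1, and of 36.4% to 59.1% for fatty acid synthesis, lowest without vehicle 4. The stricter filter ranks fewer genes and the relative SD subtracts that of similar genes, and other causes were not tested. Over all alternatives, the SD of the 207 named genes moved by more than its error in 350 of 2447 recomputed values, and the share of variable members moved in 76 of 558 over the 43 lists. No paired analysis was possible because the results come from 1 group and no test.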

Other observations

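Of 38 ranked genes of amino acid breakdown 5 were variable (13.2%, with 21.1% without vehicle 1 and 8.11% without vehicle 5), against 5.00% of all genes. Vehicle 5 was highest for 24 of the 38 and vehicle 1 lowest for 18, where vehicle 5 was highest for 15.6% and vehicle 1 lowest for 24.5% of all ranked genes. Oat, ornithine aminotransferase, read 11.22 in vehicle 1, 12.30 in vehicle 2, 12.06 in vehicle 3, 11.36 in vehicle 4 and 12.63 in vehicle 5. Methionine metabolism was variable in 4 of 16 genes (25%, and 12.5% without vehicle 5), with Bhmt, which remethylates homocysteine, between 12.66 in vehicle 1 and 13.91 in vehicle 5. Ribosomal protein genes kept a median SD of 0.08, and vehicle 1 was highest for 28 of the 39, against 23.6% of all ranked genes. Respiration genes were highest in vehicle 4 for 30 of 60 and lowest in vehicle 2 for 34, against 19.3% and 17.6% of all ranked genes.

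Red cell genes followed another order. All 5 ranked members were lowest in vehicle 2, against 17.6% of all ranked genes. The log2 of the members' summed signal ran from 13.81 in vehicle 2 to 14.80 in vehicle 4. Alas2, the heme synthesis enzyme of red cell precursors, read 8.94, 8.37, 8.42, 9.87 and 9.34 in vehicle 1 to 5. Lox, which cross-links collagen, was 8.09 in vehicle 1, 12.48 in vehicle 2 and 10.68 to 10.99 in the others. Of 14 stellate cell and matrix genes 2 were variable (14.3%, against 5.00% of all ranked genes), with a median SD of 0.19. The share was 7.14% without vehicle 1 and 21.4% without vehicle 2, vehicle 3 or vehicle 4. The SD of Lox fell from 1.58 to 0.86 without vehicle 1. Axin2, a Wnt target of the cells around the central vein, was 7.98 in vehicle 2 and 7.06 to 7.40 elsewhere.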
